A study of Mus musculus with 16 samples.

Results

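The interferon response genes are 48 mouse genes, taken by name, whose transcription rises when a cell receives interferon. One probe per gene, the one with the highest mean intensity, stood for each gene on Agilent 2-colour arrays of mouse retina, and 47 of the 48 had a probe, of 23362 genes measured in all. Xaf1 was matched to no probe. All samples were labelled as retina of C57Bl6 mice, taken from pups 24 hours after treatment. The hFc, Dll4-Fc and VEGF-A pups were injected into the vitreous at 8 days of age. The 4 hFc arrays (4 µg of the Fc part of a human antibody, the control protein) were compared with 4 Dll4-Fc arrays (4 µg of the Notch ligand Dll4 joined to Fc), 5 VEGF-A arrays (1 µg of vascular endothelial growth factor A) and 3 VEGF Trap arrays (a decoy receptor that binds VEGF, for which the labels give no dose, age or route). Whether the samples of a group are separate animals is not in the labels, and the p-values below measure the spread between samples, which may be technical.

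Type I interferons bind the receptor pair IFNAR1 and IFNAR2, whose kinases JAK1 and TYK2 signal to a complex, with STAT2 and IRF9 among its parts, that binds the interferon-stimulated response element (ISRE) in promoters. Interferon gamma works through its own receptor and acts on the gamma-activated site (GAS). The induced proteins sense foreign nucleic acid, cut or trap viral RNA, block virus entry and exit and destroy vacuoles that hold pathogens. In the retina, microglia and Müller glia are among the cells known to respond to interferon.

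Each array held 1 sample labelled with Cy3 and a common reference, a pool of RNA from the same experiment, labelled with Cy5. Values below are log2 of sample over reference, given in the order of the arrays of a group, and a difference is the mean of 1 group minus the mean of the other on that scale. A gene was called higher or lower where limma's moderated test gave a Benjamini-Hochberg adjusted p under 0.05 over all genes tested. The test takes 1 spread per gene from all 4 groups. Over the interferon response genes the median SD was 0.70 in Dll4-Fc and 0.15, 0.25 and 0.22 in hFc, VEGF-A and VEGF Trap. Standard errors and p-values of Dll4-Fc comparisons therefore lean on the tighter groups and can understate the spread within Dll4-Fc. Those of comparisons without Dll4-Fc take in its wider spread and can overstate the spread within the groups compared. On each array 84.9% to 91.0% of probes were well above background and none was saturated, and 43 of the 47 members were well above background on all 16 arrays. Of the other 4, Ifi44 and Cxcl10 missed this on 1 hFc array each, Iigp1 on 1 VEGF-A array, and Ifit1 on every array outside the Dll4-Fc group. Probes were kept if well above background on 3 arrays or more, and Ifit1 met this only through its Dll4-Fc arrays. Its place among the members called with Dll4-Fc is therefore not independent of that filter. Rod photoreceptor markers, the main cells of the tissue named in the labels, were well above background on every Dll4-Fc array for 8 of 8 genes and on every hFc array for 7 of 8. The hFc arrays held 2350 to 2599 outlier spots each against 12 to 213 on the others, concentrated in a band of rows that also held the spots of 13 members. Outlier spots were set aside, which left Adar with 1 hFc value, Ifi35 with 2 and Trim25 with 3.

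In retinas given Dll4-Fc, most of the interferon response genes stood far above their level in retinas given hFc. Of the 47, 40 were higher and 0 were lower, where 3.07% of all 22792 genes tested were higher and 1.54% lower. The 40 include Ifit1, whose probe was kept only through the Dll4-Fc arrays. The median difference over the 47 was 2.48 on the log2 scale, against -0.016 over all genes, with a range of 0.26 to 3.91. At an unadjusted p under 0.05, 44 of the 47 passed, against 2908 of all 22792 genes. In 42 of the 47, every Dll4-Fc array lay above every hFc array, a pattern that 6.14% of all genes showed. In bulk retina, more cells of a type and more RNA per cell cannot be told apart. The largest difference belonged to Usp18, at 15.0-fold, followed by Ifi27l2a at 13.9-fold, Ifi204 at 13.6-fold and Iigp1 at 13.1-fold, the last with a log2 difference of 3.71 that became 2.15 under another background correction, normexp with loess.

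Slide and treatment cannot be told apart in this comparison, because each of these groups filled a slide of its own. The same reference pool was on both slides. In its Cy5 channel 32 of the 47 members were called lower on the Dll4-Fc arrays and 0 higher. Of all genes, 53% were called in either direction. The median was -0.24 for the members and -0.23 for all genes. Over the members the Cy5 difference ran from -1.10 (Ifit1) to 0.18 (Oas1a), with Ifi44, Cxcl10, Ifih1 and Gbp3 at -0.79, -0.71, -0.67 and -0.59. The sample channel alone, without the reference, gave 36 members higher and a median of 2.03 while all genes shifted by -0.25. It moved 5 of the 40 called differences by over 1.5-fold, all toward 0, those of Cxcl10, Gbp3, Ifi44, Ifih1 and Ifit1. Normexp with loess gave 38 higher and a median of 1.76, and it moved 10 of the 40 called differences by over 1.5-fold, all toward 0. These were Cxcl10, Gbp3, Ifi44, Ifi47, Ifit1, Iigp1, Mx1, Oas1a, Sp100 and Zbp1. A fit of the 2 groups alone kept 32 of the 40 calls. Without Dll4-Fc 3, 37 were higher and the median was 1.99.

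**Figure D1:**
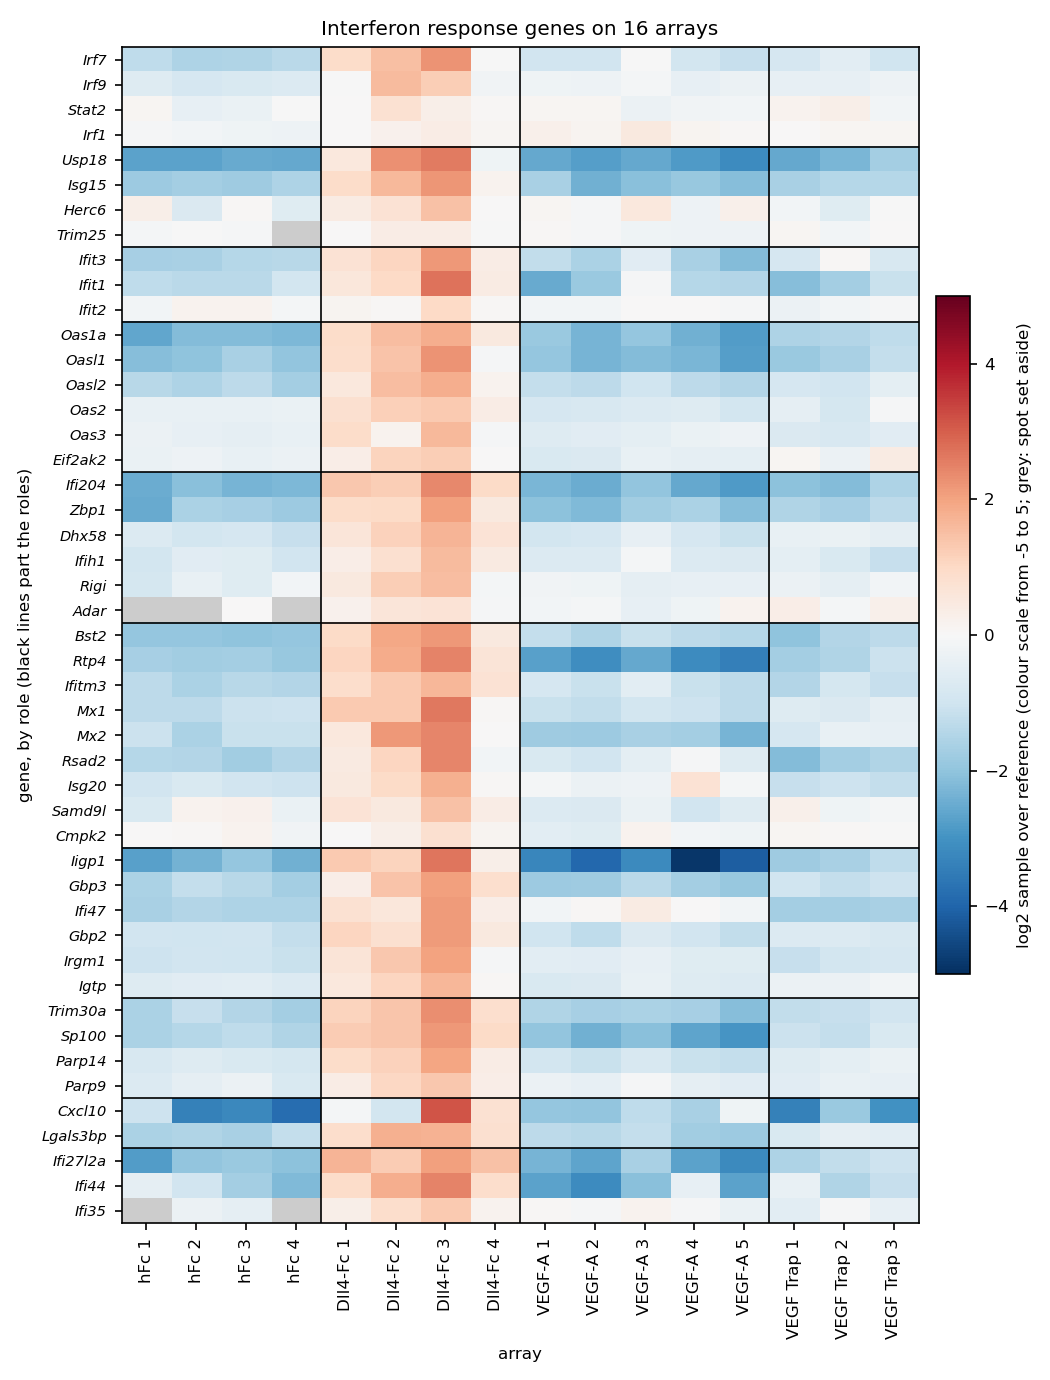
Heat map of log2 sample over reference for the 47 members (rows, grouped by role) on the 16 arrays (columns, grouped by treatment), with grey for a spot set aside. The 4 Dll4-Fc columns are the only ones where most members lie above the reference, and Dll4-Fc 4 is the palest of them.

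**Figure D2:**
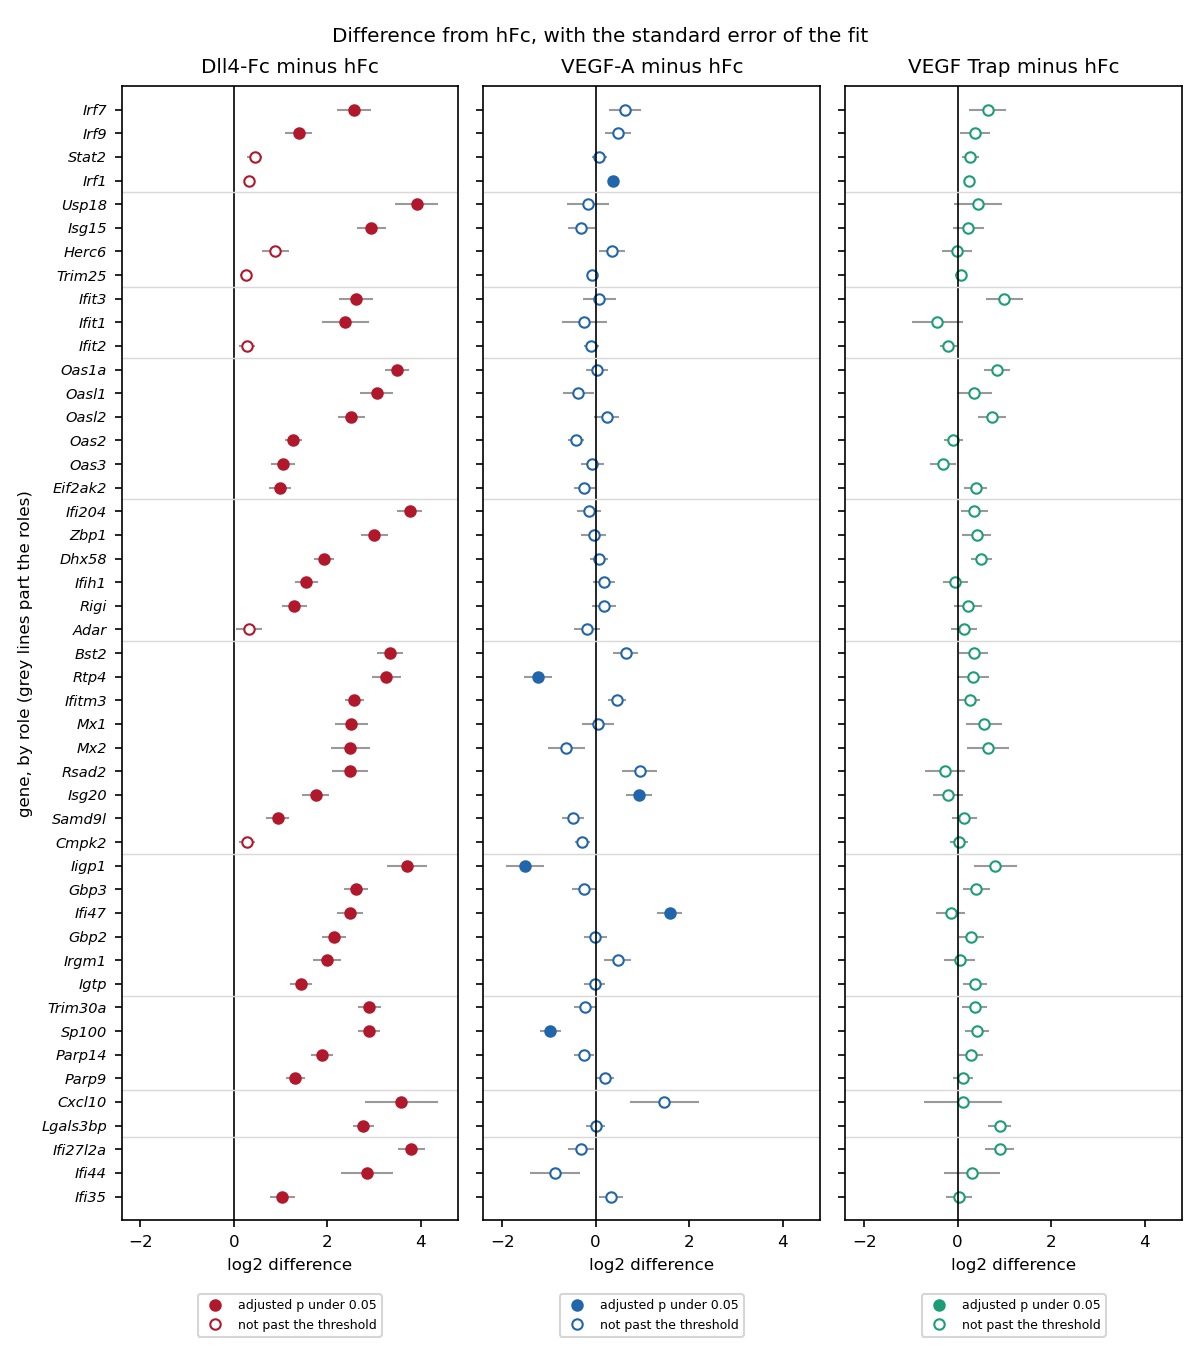
Log2 difference from hFc with its standard error for each member in Dll4-Fc, VEGF-A and VEGF Trap retinas, with filled points for an adjusted p under 0.05 in limma. Dll4-Fc points run from 0.26 to 3.91, while those of VEGF-A run from -1.51 to 1.58 and those of VEGF Trap from -0.43 to 1.00.

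The ISRE, the binding site of the complex that holds IRF9, could be searched in the promoters of 36 of the 48 members, those with a window in the RefSeq table used here (build GRCm38.p6, 250 bases before to 50 after the start). The ISRE core was searched on both strands as GAAANNGAAA, and 18 of the 36 held it (50%), against 3.99% of 27025 genes with a window. The GAS core TTCNNNGAA, which is its own reverse complement, was in 10 of the 36 (27.8%) and in 9.55% of all genes. The 8 stretches below, each lying before the start of the gene, show the core in members of several roles, and capitals mark every match on either strand.
Isg15 (chr4:156200850-156200909, minus strand): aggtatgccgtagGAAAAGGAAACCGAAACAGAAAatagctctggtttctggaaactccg
Ifit1 (chr19:34640779-34640838, plus strand): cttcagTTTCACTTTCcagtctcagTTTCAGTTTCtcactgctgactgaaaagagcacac
Ifit3 (chr19:34583382-34583441, plus strand): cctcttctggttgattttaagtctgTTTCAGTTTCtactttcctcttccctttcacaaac
Oas1a (chr5:120907526-120907564, minus strand): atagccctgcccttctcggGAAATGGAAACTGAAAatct
Cxcl10 (chr5:92349068-92349127, minus strand): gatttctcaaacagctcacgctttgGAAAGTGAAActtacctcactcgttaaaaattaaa
Gbp2 (chr3:142620579-142620638, plus strand): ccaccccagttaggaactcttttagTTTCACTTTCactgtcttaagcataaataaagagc
Irgm1 (chr11:48871421-48871469, minus strand): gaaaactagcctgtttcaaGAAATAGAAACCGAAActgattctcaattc
Stat2 (chr10:128270251-128270310, plus strand): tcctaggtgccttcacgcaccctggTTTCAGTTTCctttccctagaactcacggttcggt
In Isg15, Oas1a and Irgm1 the matches overlap into a run of GAAA repeats, and Ifit1 holds a pair of separate matches. Among the 8 stretches shown, the cores nearest to the start began in Oas1a and Irgm1 14 and 24 bases before it, while those of Cxcl10 and Stat2 began 213 and 222 bases before it. Of the 28 members with a window that were higher with Dll4-Fc, 17 held the core (60.7%), and of the 7 that were not called, 1 did (14.3%), which was Stat2. The median difference was 2.44 over the 18 members with the core and 1.39 over the 17 measured members without it. A match is a description of the letters and was not tested as a binding site.

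Among the transcription factors of the response, 2 of 4 were higher with Dll4-Fc. Irf7, the factor that amplifies type I interferon production, stood at -1.28, -1.56, -1.50 and -1.36 on the hFc arrays and at 0.90, 1.49, 2.26 and -0.021 on the Dll4-Fc arrays. Every Dll4-Fc array was above every hFc array, and the difference was 2.58 ± 0.36 (SE), or 5.98-fold (adjusted p = 0.000332). Irf9, the DNA-binding part of the complex that acts on the ISRE, went from -0.65, -0.83, -0.77 and -0.68 to -0.022, 1.58, 1.24 and -0.17. Its difference of 1.39 ± 0.30 (SE) passed the test (adjusted p = 0.0107), and arrays 2 and 3 carried most of it. In a fit of the 2 groups alone the adjusted p of Irf9 was 0.134. Stat2, which encodes a partner of IRF9, was 0.10, -0.40, -0.32 and -0.019 on the hFc arrays and 0.024, 0.75, 0.31 and 0.067 on the Dll4-Fc arrays. The groups of Stat2 overlapped, and its difference of 0.45 ± 0.16 (SE) was not called (adjusted p = 0.202). Irf1, the factor induced early by interferon gamma, lay at -0.052, -0.14, -0.23 and -0.25 and then at 0.018, 0.20, 0.36 and 0.081, groups that did not overlap. Its difference of 0.34 ± 0.097 (SE) missed the threshold (adjusted p = 0.0705).

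ISG15 is a ubiquitin-like protein joined to other proteins during infection, and Usp18 encodes the enzyme that removes it and also dampens the interferon receptor. Usp18 was -2.68, -2.69, -2.52 and -2.56 on the hFc arrays and 0.51, 2.29, 2.59 and -0.20 on the Dll4-Fc arrays. The gap of at least 2 log2 units between the groups gave a difference of 3.91 ± 0.47 (SE) (adjusted p = 7.47e-05). Isg15 itself went from -1.83, -1.70, -1.77 and -1.55 to 0.92, 1.60, 2.21 and 0.17. Its difference of 2.94 ± 0.31 (SE) was 7.67-fold (adjusted p = 2.87e-05). Neither ligase of the group was called. Herc6, the main ISG15 ligase of the mouse, ran from -0.72 to 0.29 with hFc and was 0.39, 0.73, 1.45 and 0.018 with Dll4-Fc, a difference of 0.89 ± 0.29 (SE) (adjusted p = 0.135). Trim25, a ligase that also activates RIG-I, had 3 hFc values between -0.11 and -0.034 and Dll4-Fc values of 0.023, 0.38, 0.37 and -0.0073. Its difference was 0.26 ± 0.11 (SE) (adjusted p = 0.361), with no overlap between the groups.

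IFIT proteins bind viral RNA that lacks the cap of host messages. Ifit3 was -1.66, -1.64, -1.42 and -1.38 with hFc and 0.72, 1.08, 2.16 and 0.38 with Dll4-Fc, a difference of 2.61 ± 0.37 (SE) or 6.1-fold (adjusted p = 0.00033). Ifit1 read 0.55, 0.99, 2.70 and 0.40 on the Dll4-Fc arrays and was not well above background on any hFc array. The fit's adjusted p for Ifit1 was 0.0105, and against the dimmest measurable signal on the hFc arrays it was at least 1.38-fold higher. With the sample channel alone its adjusted p was 0.0552. Ifit2, whose gene sits next to Ifit3 on chromosome 19, did not move with its neighbour. It read -0.14, 0.19, 0.19 and -0.089 with hFc and 0.15, 0.068, 1.01 and 0.070 with Dll4-Fc, so that only Dll4-Fc 3 stood clear of the hFc arrays. The difference of 0.29 ± 0.17 (SE) was not called (adjusted p = 0.561), nor was that of its other probe (0.46).

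All 6 genes of the oligoadenylate synthetase family and the double-stranded RNA kinase PKR (Eif2ak2) were higher with Dll4-Fc. Oligoadenylate synthetases make the messenger that switches on RNase L, which cuts RNA. Oas1a went from -2.60, -2.15, -2.18 and -2.25 with hFc to 0.92, 1.55, 1.81 and 0.49 with Dll4-Fc. Its difference of 3.49 ± 0.26 (SE) was 11.2-fold (adjusted p = 1.03e-06). Oasl1, which restrains translation of Irf7 messages, went from -2.14, -1.99, -1.61 and -1.97 to 0.89, 1.41, 2.25 and -0.042, a difference of 3.06 ± 0.35 (SE) (adjusted p = 5.68e-05). Oasl2 went from -1.40, -1.56, -1.32 and -1.71 to 0.53, 1.55, 1.83 and 0.16, a difference of 2.51 ± 0.28 (SE) (adjusted p = 4.44e-05). In each of these 3 the lowest Dll4-Fc array was at least 1 log2 unit above the highest hFc array. Oas2, Oas3 and Eif2ak2 differed less, by 1.28, 1.05 and 0.99. The calls of the last pair rested on single arrays: Oas3 was lost without any 1 of the hFc arrays or Dll4-Fc 1 (adjusted p from 0.0551 to 0.0923) and Eif2ak2 without hFc 3, Dll4-Fc 2 or Dll4-Fc 3 (0.0534 to 0.0647).

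Genes that sense RNA and DNA were higher for 5 of 6. Ifi204, a sensor of DNA in the cytosol and nucleus, rose from -2.49, -2.07, -2.33 and -2.23 to 1.33, 1.24, 2.42 and 0.94. Its difference of 3.77 ± 0.27 (SE) was 13.6-fold (adjusted p = 7.21e-07), and of 3 further probes for it, differences of 3.78 and 4.04 passed the test and 1 of 0.81 did not. Ifi204 belongs to a family of closely related neighbours, and whether its probes also bind their transcripts was not tested. Zbp1, a sensor of Z-form nucleic acid that can trigger cell death, went from -2.53, -1.59, -1.66 and -1.82 to 0.91, 0.96, 2.07 and 0.51, a difference of 3.01 ± 0.29 (SE) (adjusted p = 9.82e-06). Dhx58, which encodes the RIG-I relative LGP2, went from -0.69, -0.90, -0.82 and -1.17 to 0.61, 1.16, 1.69 and 0.68, a difference of 1.93 ± 0.20 (SE) (adjusted p = 2.76e-05). The RNA sensors Rigi and Ifih1 (MDA5) were higher by 1.30 and 1.56, and Rigi was not called in a fit of the 2 groups alone (adjusted p = 0.124). Adar, the enzyme that edits adenosines in double-stranded RNA, read 0.22, 0.59, 0.68 and -0.048 with Dll4-Fc and had 1 usable hFc value, 0.034. Its difference of 0.33 ± 0.28 (SE) was not called (adjusted p = 0.733), while the mean over its probes gave 0.42 (adjusted p = 0.0172).

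Effectors at membranes, in nucleotide supply and in virus entry or exit were higher for 8 of 9. Bst2, or tetherin, which holds budding virus at the cell surface, was -1.93, -1.94, -2.00 and -1.93 with hFc and 0.96, 1.94, 2.15 and 0.50 with Dll4-Fc. The hFc arrays hardly differed from each other, and the difference of 3.34 ± 0.28 (SE) was 10.1-fold (adjusted p = 3.45e-06). Rtp4, a chaperone of receptors with antiviral activity, went from -1.64, -1.76, -1.71 and -1.91 to 1.07, 1.85, 2.48 and 0.64, a difference of 3.27 ± 0.31 (SE) (adjusted p = 1.07e-05). Ifitm3, which blocks fusion of virus with endosomes, went from -1.30, -1.59, -1.37 and -1.47 to 0.90, 1.32, 1.65 and 0.72, a difference of 2.58 ± 0.20 (SE) (adjusted p = 1.59e-06). Mx1, Mx2 and Rsad2 (viperin) rose by 2.51, 2.49 and 2.49, and the exonuclease Isg20 by 1.75. Samd9l, an inhibitor of translation in infected cells, rose by 0.94 and was not called without hFc 1, hFc 4, Dll4-Fc 1 or Dll4-Fc 3 (adjusted p from 0.0822 to 0.121). Cmpk2, a mitochondrial nucleotide kinase, is the neighbour of Rsad2 on chromosome 12 and was the exception. It read 0.035, 0.077, 0.19 and -0.20 with hFc and 0.024, 0.28, 0.79 and 0.15 with Dll4-Fc, a difference of 0.28 ± 0.17 (SE) (adjusted p = 0.576), with its other probe at 0.078.

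The guanylate-binding proteins and immunity-related GTPases, which attack the vacuoles of intracellular pathogens and respond to interferon gamma above all, were higher for 6 of 6. Iigp1 went from -2.71, -2.37, -1.93 and -2.41 to 1.30, 1.13, 2.69 and 0.29, a difference of 3.71 ± 0.43 (SE) or 13.1-fold (adjusted p = 5.88e-05), and 2.15 with normexp and loess. Gbp3 went from -1.57, -1.20, -1.38 and -1.69 to 0.33, 1.41, 2.03 and 0.85, a difference of 2.61 ± 0.26 (SE) (adjusted p = 1.79e-05). Ifi47, or IRG-47, went from -1.62, -1.45, -1.53 and -1.56 to 0.75, 0.57, 2.13 and 0.32, a difference of 2.48 ± 0.28 (SE) (adjusted p = 4.61e-05). In all 3 the Dll4-Fc arrays lay above 0 and the hFc arrays below -1. Gbp2, Irgm1 and Igtp rose by 2.15, 2.00 and 1.44, and Igtp was not called in a fit of the 2 groups alone (adjusted p = 0.0503).

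The ADP-ribosyltransferases and nuclear body genes were higher for 4 of 4. Trim30a, which restrains Toll-like receptor signalling, went from -1.58, -1.16, -1.46 and -1.72 to 1.11, 1.40, 2.34 and 0.84, a difference of 2.90 ± 0.25 (SE) (adjusted p = 4.01e-06). Sp100, a component of nuclear bodies, went from -1.58, -1.42, -1.26 and -1.50 to 1.27, 1.41, 2.18 and 0.96, a difference of 2.89 ± 0.24 (SE) (adjusted p = 2.8e-06). The 4 Sp100 probes ran from 0.89 to 2.89 and 3 of them passed the test. Parp14 went from -0.81, -0.66, -0.77 and -0.89 to 0.92, 1.16, 1.99 and 0.37, a difference of 1.89 ± 0.24 (SE) (adjusted p = 0.000111), and Parp9 rose by 1.32.

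Both secreted members were higher. Cxcl10, the chemokine that draws activated T cells, had the widest scatter of any member, at -1.04, -3.39, -3.22 and -3.82 with hFc and -0.12, -0.93, 3.15 and 0.75 with Dll4-Fc. Dll4-Fc 3 and hFc 1 stood apart from the rest of their groups. Its difference of 3.58 ± 0.78 (SE) passed the test (adjusted p = 0.0127), but normexp with loess gave 1.52 (adjusted p = 0.0711) and a fit of the 2 groups alone an adjusted p of 0.109. Lgals3bp, a secreted glycoprotein that binds galectins, was tighter, at -1.59, -1.51, -1.62 and -1.20 and 0.87, 1.77, 1.76 and 0.78. Its difference was 2.77 ± 0.22 (SE) or 6.83-fold (adjusted p = 1.95e-06).

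The 3 remaining members were all higher. Ifi27l2a, a small interferon-induced protein, went from -2.81, -1.96, -1.87 and -2.05 to 1.71, 1.29, 2.05 and 1.45. Its Dll4-Fc arrays lay within 1 log2 unit of each other, and the difference was 3.80 ± 0.29 (SE) (adjusted p = 1.37e-06). Ifi44 went from -0.46, -0.95, -1.70 and -2.22 to 0.92, 1.80, 2.48 and 0.87, a difference of 2.85 ± 0.56 (SE) (adjusted p = 0.00554). Its other probe gave 0.87 (adjusted p = 0.641), and the sample channel alone gave an adjusted p of 0.0545. Ifi35, with 2 hFc values, -0.30 and -0.44, read 0.31, 0.88, 1.31 and 0.19 with Dll4-Fc. Its difference of 1.04 ± 0.26 (SE) was called (adjusted p = 0.0421) and lost without hFc 2, hFc 3, Dll4-Fc 2 or Dll4-Fc 3 (0.0559 to 0.257).

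The 7 members not called had differences from 0.26 to 0.89. They were Herc6, Stat2, Irf1, Adar, Ifit2, Cmpk2 and Trim25. Leaving out each hFc or Dll4-Fc array in turn kept 36 of the 40 calls, and 30 of the 40 were also kept under every other setting tried. The 37 further probes of 24 members all had the same sign as the chosen ones, and 24 of them passed the test. With the mean over a gene's probes, the median over the 47 was 2.03 in place of 2.48. That setting moved Ifi204, Ifi44, Ifit3 and Sp100 by over 1.5-fold, all toward 0, and the call of Oas3 was lost.

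The upstream pathway was read from lists of genes that are not members. Of 12 interferon ligands listed, 9 had a probe, and Ifnb1 (interferon beta), Ifna11 and Ifnl2 were matched to none. Signal was low, with a summed Cy3 of 234 to 353 over the 9 on the hFc arrays. Ifna2 and Ifne were well above background on 0 hFc arrays. Among the 9, 0 were called in limma and 1 passed at an unadjusted p under 0.05, with a median difference of 0.025. That 1 was Ifng, interferon gamma, at 0.86 ± 0.34 (SE) (adjusted p = 0.254). Of 11 receptor and signalling genes, 2 were higher and 0 lower, with a median difference of 0.11. Stat3 rose by 0.55 ± 0.13 (SE) (adjusted p = 0.0241). The receptor genes Ifnar1 and Ifnar2 differed by -0.038 and 0.18, and the kinases Jak1 and Tyk2 by -0.019 and -0.089, with none called. Of 16 pattern sensors, adaptors and kinases, 6 rose, among them the bacterial lipoprotein receptor Tlr2 (1.56), the DNA pathway adaptor Sting1 (0.96) and the myeloid factors Irf8 (0.83) and Irf5 (0.62). Of 7 genes that brake interferon signalling, 1 rose, the phosphatase Ptpn6 (1.52, with 1 hFc value), and Socs1 differed by 0.41 (adjusted p = 0.153). A further list of 30 interferon-induced genes that are not members had 23 higher and 0 lower, with a median of 1.10. The 4 with the smallest p were Slfn2 (2.71), the GTPase Tgtp1 (4.12), the DNA-binding Ifi205 (2.97) and Uba7, the activating enzyme for ISG15 (1.45). Among 16 genes induced by NF-kappaB, 4 rose and 1 fell: Ccl2 by 3.46, Tnf by 1.69, Icam1 by 0.74 and Tnfaip2 by 0.43, while Vcam1 fell by 1.44.

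The 4 Dll4-Fc arrays differed from each other in how high the members stood. Over the 44 members measured on every array, the mean was 0.69, 1.13, 1.90 and 0.34 on Dll4-Fc 1 to 4, against -1.27 to -1.16 on the hFc arrays. Dll4-Fc 3 was the highest of the group for 43 of the 47 members, and Dll4-Fc 4 the lowest for 38. The order 3, 2, 1, 4 held for 29. The median SD of a member was 0.70 within the Dll4-Fc group and 0.15 within the hFc group, while the median SD of all genes was 0.17 and 0.15. On all 4 arrays 45 of the 47 members stood above their hFc mean. Usp18 spread from -0.20 to 2.59 over these arrays, Irf7 from -0.021 to 2.26 and Mx2 from 0.016 to 2.43, while Irf1 spread from 0.018 to 0.36.

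Other lists were read on the same arrays. The 28 other interferon-induced genes measured on every array averaged 0.53, 0.74, 1.32 and 0.26 on Dll4-Fc 1 to 4, and the 9 ligands -0.026, 0.075, 0.35 and -0.061. Microglia and macrophage markers were higher with Dll4-Fc for 11 of 13 tested and lower for 1. Aif1 rose by 1.50, the complement gene C1qa by 0.82, Tmem119 by 1.00 and Fcer1g by 1.36 (with 1 hFc value), while the homeostatic receptor P2ry12 fell by 0.51. The 10 microglia markers measured on every array averaged 0.63, 0.38, 0.72 and 0.50 on Dll4-Fc 1 to 4 and -0.41 to -0.18 on the hFc arrays. Their summed Cy3 signal ran from 18867 to 25821 with hFc and from 42085 to 53513 with Dll4-Fc, and all 14 markers of the list were well above background on all of these. These sums are not scaled between arrays: those of the 8 rod markers ran from 253238 to 299419 with hFc and from 288676 to 566835 with Dll4-Fc, while their mean log2 ratios were -0.42 and -0.43. Of 6 monocyte markers listed, Ly6c2 was matched to no probe and Ccr2 was well above background on 0 arrays. Among the 4 tested, 1 rose, Plac8 by 3.57. Of 9 neutrophil and 9 T and NK cell markers, 0 were called in limma, with 4 and 2 at an unadjusted p under 0.05. Of 6 B cell and plasmacytoid dendritic cell markers, Ly6d (0.64) and Ms4a1 (0.67) rose and Siglech fell by 0.54. Of 5 astrocyte markers 1 rose, the glial filament gene Gfap by 1.13, and of 8 endothelial markers 1 rose, the receptor gene Tie1 by 0.32. Müller glia markers were lower for 8 of 10 and averaged -1.10, -1.23, -1.26 and -0.61 on Dll4-Fc 1 to 4. The part of these cell markers in the members' values was not tested.

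**Figure D3:**
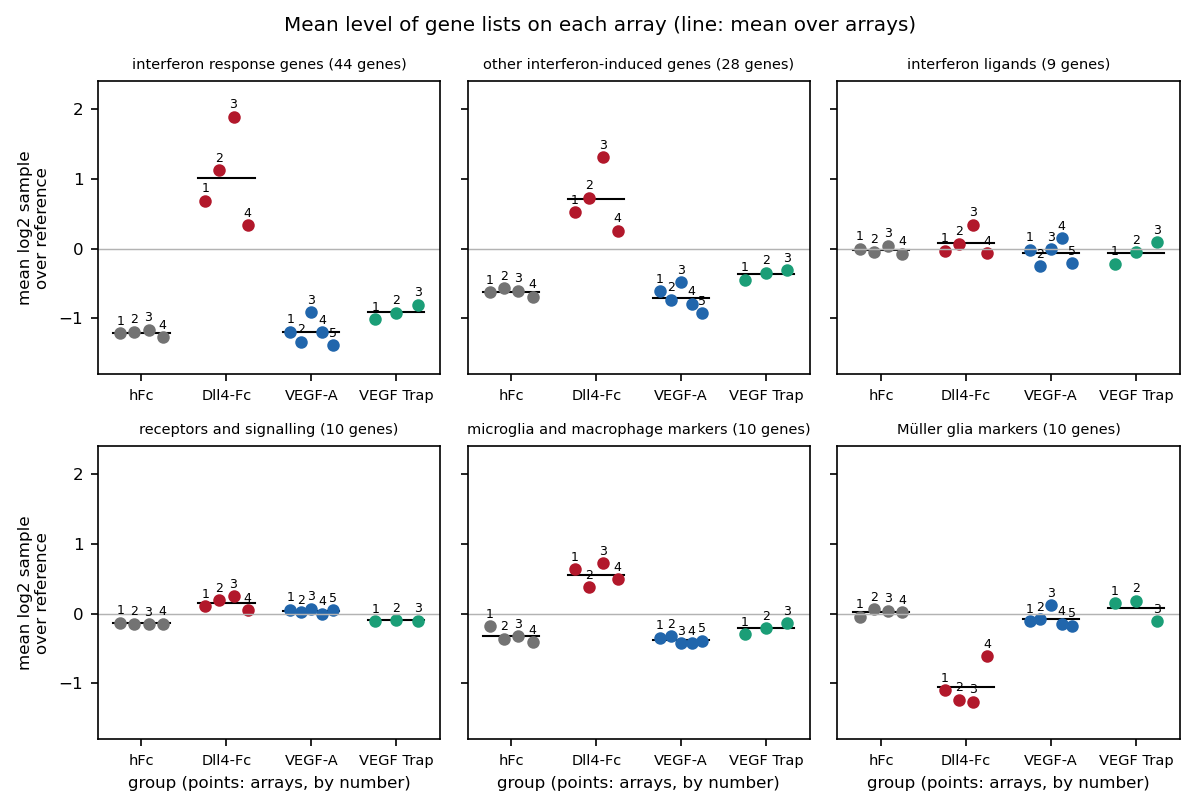
Mean log2 sample over reference on each array (points, numbered within a group) for the members and 5 other gene lists, with lines for group means. The members and the other interferon-induced genes spread widely over the 4 Dll4-Fc arrays, from 0.34 to 1.90 and from 0.26 to 1.32, while the microglia markers lay between 0.38 and 0.72.

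The members were also compared between Dll4-Fc and the other proteins, comparisons that reuse the same Dll4-Fc arrays and so are not independent of the one above. Against VEGF-A, 40 of 47 were higher and 0 lower, where 6.36% of 23362 genes were higher and 6.93% lower, and the median difference was 2.11. In 36 the arrays did not overlap, against 7.03% of all genes. Iigp1 differed most, by 5.22 ± 0.41 (SE), then Rtp4 by 4.50 ± 0.30 (SE), Ifi27l2a by 4.11 ± 0.27 (SE) and Usp18 by 4.07 ± 0.44 (SE). Iigp1 was not well above background on 1 of the 5 VEGF-A arrays, and with normexp and loess it differed by 2.81, less than Rtp4 at 4.30. The 7 not called were Ifit2, Irf1, Isg20, Stat2, Cxcl10, Herc6 and Adar, and Irf1 alone had a difference below 0 (-0.041). Some calls rested on single arrays. Irf9 was lost without Dll4-Fc 2, Dll4-Fc 3 or any 1 VEGF-A array (adjusted p of up to 0.152), and Trim25 without Dll4-Fc 2 or 3 or VEGF-A 3, 4 or 5 (up to 0.128). Cmpk2 was lost without Dll4-Fc 2 or 3 or VEGF-A 1 or 2 (up to 0.109), Ifi35 without Dll4-Fc 2 or 3 or VEGF-A 1, 2, 4 or 5 (up to 0.101), and Ifi47 without Dll4-Fc 1 or VEGF-A 1, 2, 4 or 5 (up to 0.0806). Against VEGF Trap, 38 of 47 were higher and 0 lower, where 8.22% of all genes were higher and 5.38% lower, with a median of 1.88. In 41 the arrays did not overlap, against 14% of all genes. Usp18 (3.47 ± 0.50 (SE)) and Cxcl10 (3.47 ± 0.84 (SE)) differed most, though Cxcl10 by 1.95 with normexp and loess, and its adjusted p was 0.0614 in a fit of the 2 groups alone and 0.0925 in the sample channel alone. Fits of the 2 groups alone lost 6 of the calls against VEGF-A and 10 of those against VEGF Trap. The 9 not called were Ifit2, Irf1, Stat2, Trim25, Eif2ak2, Samd9l, Herc6, Cmpk2 and Adar. With only the Trap array of slide 4 kept, 15 were called. Irf9 and Rigi were lost without Dll4-Fc 2, Dll4-Fc 3 or any 1 Trap array (up to 0.14 and 0.084), Cxcl10, Ifi35 and Ifit3 without VEGF Trap 1 or 3 (up to 0.0787), and Igtp and Mx2 without VEGF Trap 1 (0.0602 and 0.0743). In the reference channel, 0 members were called in either comparison, with 0.00428% and 0% of all genes called. The members' Cy5 differences ran from -0.56 to 0.45 against VEGF-A and from -0.61 to 0.45 against VEGF Trap. The Dll4-Fc arrays shared no slide with either group, so slide and treatment cannot be told apart in these comparisons.

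With VEGF-A, few members were called, and those that were went both ways. Of the 47, 3 were higher and 3 lower than with hFc, where 5.9% of all genes were higher and 4.3% lower. At an unadjusted p under 0.05, 10 of the 47 passed, a smaller share than the 5457 of all 22792 genes. The median difference was -0.017. The VEGF-A and VEGF Trap arrays lay on 2 other slides than hFc, and treatment and slide cannot be told apart here either. Using VEGF-A arrays from only slide 3 or only slide 4, 1 and 2 members were called. In 13 members the VEGF-A and hFc arrays did not overlap. In 8 of these every VEGF-A array lay above every hFc array, against 7.63% of all genes. In the rest every VEGF-A array lay below, a pattern not counted over all genes.

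Ifi47 had the largest rise, with VEGF-A arrays at -0.16, 0.059, 0.41, 0.030 and -0.13 and hFc arrays at -1.62, -1.45, -1.53 and -1.56. The difference was 1.58 ± 0.27 (SE) or 3.0-fold (adjusted p = 0.000921), and it was kept under every alternative tried. Irf1 stood at 0.24, 0.13, 0.48, 0.13 and 0.059, above all hFc arrays, with a difference of 0.38 ± 0.092 (SE) (adjusted p = 0.0154). The call of Irf1 was lost without hFc 3 (adjusted p = 0.0526), its difference was 0.053 in the sample channel alone, and the mean over its probes gave an adjusted p of 0.0668. Isg20 stood at -0.083, -0.31, -0.25, 0.73 and -0.098, a difference of 0.92 ± 0.28 (SE) (adjusted p = 0.0482), and its call was lost without any 1 of the 9 arrays (0.0503 to 0.102), with normexp and loess (0.0939) and in the sample channel alone (0.128). When VEGF-A was read from slide 3 alone, all of the 6 calls but Ifi47 were lost, and from slide 4 alone, all but Ifi47 and Sp100.

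Among the genes that fell, Rtp4 stood at -2.71, -3.10, -2.56, -3.14 and -3.42 with VEGF-A, below every hFc array, with a difference of -1.23 ± 0.30 (SE) (adjusted p = 0.0142). The call of Rtp4 was kept when any 1 array was left out and lost when VEGF-A was read from slide 3 alone (adjusted p = 0.0932) or slide 4 alone (0.073). Iigp1 was dim with VEGF-A, well above background on 4 of the 5 arrays, at -3.25, -3.94, -3.20, -4.85 and -4.10. Its difference of -1.51 ± 0.41 (SE) was called (adjusted p = 0.0279), but became -0.65 with normexp and loess (adjusted p = 0.174) and was lost without hFc 2, 3 or 4 or VEGF-A 2, 4 or 5 (up to 0.0865). Sp100 stood at -1.97, -2.39, -2.11, -2.62 and -2.95, a difference of -0.97 ± 0.23 (SE) (adjusted p = 0.0122). The 3 other Sp100 probes gave 0.66, -0.50 and 0.22 with none called, and the mean over its probes gave -0.15 (adjusted p = 0.683). Without hFc 3, the number of members called was 3. Ifi47 rose and Iigp1 fell although both encode immunity-related GTPases. Of the 30 other interferon-induced genes, 1 was higher and 1 lower, while of the 16 genes induced by NF-kappaB 7 were higher and 1 lower.

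**Figure D4:**
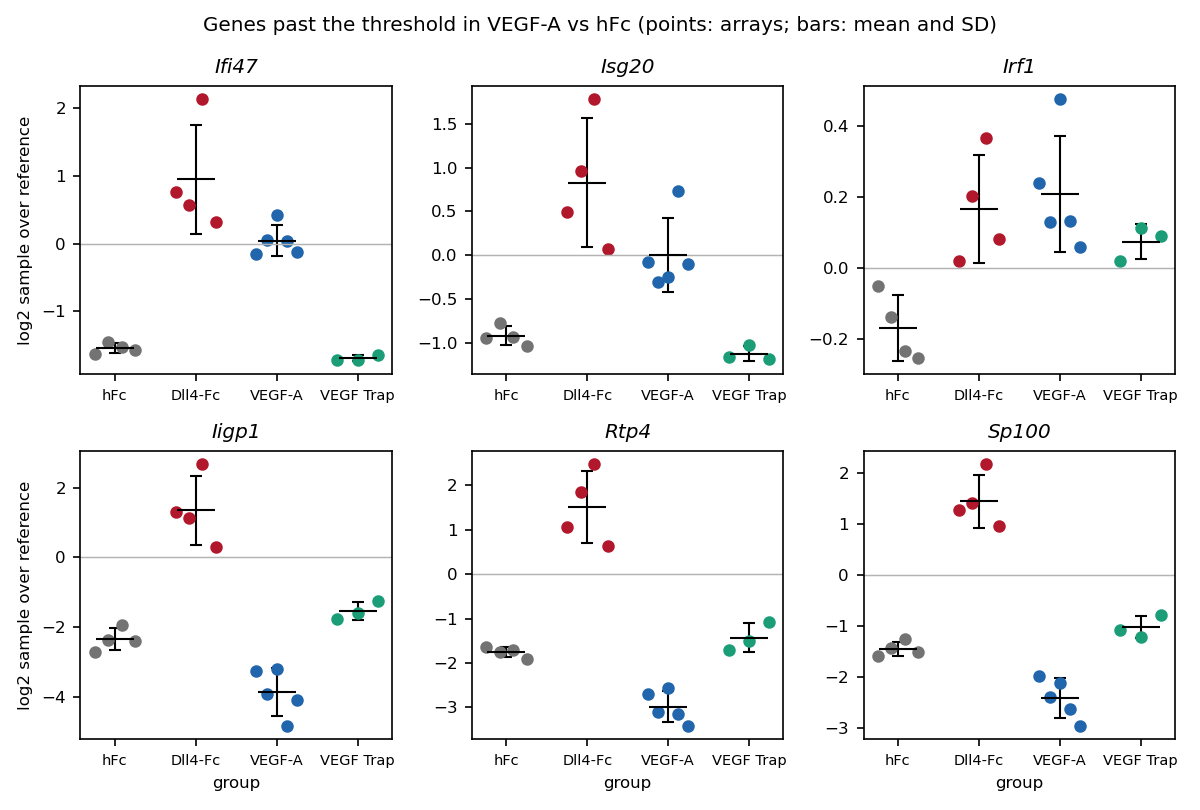
Log2 sample over reference on each array for the 6 members called between VEGF-A and hFc, with bars for the mean and SD of each group. Ifi47 and Isg20 are higher with VEGF-A than with hFc or VEGF Trap, and Rtp4, Sp100 and Iigp1 lower.

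With VEGF Trap, no member was called against hFc in limma (0 of 47 in either direction), where 1.3% of all genes were higher and 2.43% lower. At an unadjusted p under 0.05, 7 of the 47 passed, a smaller share than the 4855 of all 22792 genes. A fit of the 2 groups alone called 4 members and 2.37% of all genes. The differences leaned above 0 in 38 of the 47, with a median of 0.29 against -0.025 over all genes. In 17 members the 3 Trap arrays lay above all hFc arrays, against 11.6% of all genes. Lgals3bp came closest, at -0.77, -0.43 and -0.54 with VEGF Trap, a difference of 0.90 ± 0.24 (SE) (adjusted p = 0.0525), and normexp with loess gave 0.85 (adjusted p = 0.0374). Oas1a followed at -1.56, -1.48 and -1.28, a difference of 0.85 ± 0.28 (SE) (adjusted p = 0.1). Ifi27l2a and Ifit3 differed by 0.90 ± 0.31 (SE) and 1.00 ± 0.40 (SE) (adjusted p = 0.117 and 0.164). The 30 other interferon-induced genes had 0 called in limma, 5 at an unadjusted p under 0.05, and a median of 0.22.

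VEGF-A and VEGF Trap arrays shared 2 slides, so that this comparison could be made within a slide. Of the 47 members, 2 were higher with VEGF-A and 7 lower, where 10.6% of all genes were higher and 8.68% lower. At an unadjusted p under 0.05, 16 of the 47 passed, a share close to the 7448 of all 23362 genes. In 20 members the arrays of the groups did not overlap. In 4 of these every VEGF-A array was the higher, a pattern that 12.7% of all genes showed. Ifi47 stood at -1.71, -1.71 and -1.64 with VEGF Trap, a difference of 1.73 ± 0.29 (SE) (adjusted p = 0.000645). Isg20 was higher with VEGF-A by 1.12 ± 0.30 (SE) (adjusted p = 0.0169). Iigp1 was lower by 2.32, with VEGF Trap arrays at -1.76, -1.61 and -1.27 (adjusted p = 0.00189), though by 0.64 with normexp and loess (adjusted p = 0.191). Rtp4 fell by 1.56 (adjusted p = 0.00333) and Sp100 by 1.39 (adjusted p = 0.00108, or 0.166 for the mean over its probes). Mx2, Ifi27l2a, Lgals3bp and Oas1a fell by 1.29, 1.22, 0.90 and 0.82. With normexp and loess the calls of Mx2 (adjusted p = 0.1) and Oas1a (0.302) were lost. The titles of VEGF-A 4 and VEGF Trap 3 share a code whose meaning the labels do not give.

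All 9 kept their sign within each slide, though they were called on these same arrays, so this is no independent check. On slide 3 (2 arrays against 2) and slide 4 (3 against 1), 31 of the 47 differences were below 0, with medians of -0.29 and -0.42 against -0.024 and -0.042 over all genes. With slide as a block in a fit of these groups, 17 members were called, 4 higher and 13 lower, and 7 of the 9 were kept. Ifi27l2a (adjusted p = 0.0514) and Oas1a (0.0613) were lost, while Rsad2, which was higher by 1.21 at an adjusted p of 0.0507 without the block, reached 0.00676 with it. Without VEGF Trap 3, 5 were called. Mx2 was lost without any 1 of the 8 arrays (0.0574 to 0.138), Oas1a without VEGF-A 2, 4 or 5 or any 1 Trap array (up to 0.143), Isg20 without VEGF Trap 1 or 3 (0.0616 and 0.0621), Ifi27l2a without VEGF Trap 3 (0.0549) and Lgals3bp without VEGF Trap 2 (0.0523).

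Ordered by group mean, 46 of the 47 members were highest with Dll4-Fc, and 22 followed the order Dll4-Fc, VEGF Trap, hFc, VEGF-A. Most of these genes were not called between the last 3 groups in the shared fit. In limma, 6 members were called between VEGF-A and hFc, 0 between VEGF Trap and hFc, and 9 between VEGF-A and VEGF Trap. Fits of the 2 groups alone, without the Dll4-Fc arrays, called 12, 4 and 20 of the 47. Of all genes they called 8.28%, 2.37% and 14.4%. Irf1 was highest with VEGF-A, at 0.21 ± 0.16 (SD, n = 5) against 0.17 ± 0.15 (SD, n = 4) with Dll4-Fc, a difference within the spread (adjusted p = 0.847).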

How the data were processed

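Retina RNA of 16 samples in 4 groups, named from the treatment labels, was measured on Agilent 4x44k arrays. Per the file headers and the submitters' processing notes, Feature Extraction 9.5.1.1 subtracted background, detrended each array and normalized the dyes. The deposited LogRatio is log10 of Cy5 (reference) over Cy3 (sample) per the file headers and labels, and its negative, divided by log10 of 2, gave log2 of sample over reference. The deposited signal columns are intensity values per the file headers and gave the sample channel alone and the normexp alternative. The authors' value table is on a natural log scale, not centred, by comparison with the scanner values (correlation of at least 0.999), and 26.4% of its cells were empty. No dyes were swapped. The lowest correlation between arrays, VEGF-A 2 with Dll4-Fc 3, was -0.248.

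Spots the scanner software marked as outliers were set aside, and 39788 of 43426 probes were kept, those whose Cy3 signal was well above background on 3 arrays or more. Probes were named by their RefSeq transcript where it was matched, and otherwise by the files' gene column or an older symbol. The files' own name differs for some members, such as Tyki for Cmpk2 and Gbp4 for Gbp3. limma 3.58.1 (R 4.3.3) fitted all 4 groups together (12 residual degrees of freedom, 2.32 from the prior) with 2-sided tests and Benjamini-Hochberg adjustment over 22792 genes against hFc and 23362 otherwise. On simulated data the fit recovered 30% of genes changed by 0.5 log2 units and 75% of those changed by 1, for Dll4-Fc against hFc with 23362 genes. The simulation gave each gene the same spread in all 4 groups. The members spread more in Dll4-Fc than in hFc, so these shares do not describe them. The number of arrays limits the precision.

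The bound for Ifit1 sets the mean of the bright group against, on each array of the dim group, the higher of its own signal and the lowest signal well above background. The members, the gene lists, the roles and the settings tried were chosen with earlier results of these data known. In each role, the 3 members with the largest difference for Dll4-Fc against hFc were given on every array, with the members called between the other groups and those not called; of other genes, up to 4 called genes per list with the smallest p were named, and 1 gene is not reported here. Settings tried were normexp with loess, the authors' table, outlier spots kept, no filter on dim probes, the mean over a gene's probes, Cy3 alone, hFc 1 and hFc 2 averaged (their titles share a code, as do those of VEGF-A 4 and VEGF Trap 3), slide as a block, 2-group fits, single slides, the band of rows left out, and each array left out in turn.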

Additional observations from a re-analysis of the deposited data

Results flagged for a closer look

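A gap between the highest or lowest array and the rest of its group that passed Dixon's critical value was found for 8 members and 1 gene list. Of the 44, 47 and 47 members tested in the hFc, Dll4-Fc and VEGF-A groups, 3, 1 and 4 had such an array, where by chance about 1 group in 20 does. The value given is the gap over the range of the group.

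In the hFc group, Rsad2 was low on hFc 3 (0.835), at -1.73 where the next array was -1.48, Mx2 on hFc 2 (0.861) and Bst2 on hFc 3 (0.853), the last at -2.00 against -1.94. In the Dll4-Fc group, Ifit2 was high on Dll4-Fc 3 (0.918), at 1.01 where the next array was 0.15. In the VEGF-A group, Irf7 was high on VEGF-A 3 (0.798), at -0.035 against -0.91, and so was Ifih1 (0.911), at -0.097 against -0.68. Isg20 was high on VEGF-A 4 (0.783), at 0.73 against -0.083, and Trim30a low on VEGF-A 5 (0.742), at -2.14 against -1.67. Of the marker lists, the mean of the infiltrating monocyte markers was low on Dll4-Fc 2 (0.904), at -0.37 where the next array was 0.63.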

How the results depend on the processing

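For Dll4-Fc against hFc, 32 to 40 members stayed higher and 0 lower under all settings, and 37 to 40 with any 1 array left out. No member's sign turned where it was called. For VEGF-A against hFc, the 6 calls became 3 with the mean over probes, 12 in a 2-group fit (7 higher, 5 lower), 1 and 2 with the arrays of slide 3 and slide 4 only, and 3 to 5 with any 1 array left out. In the sample channel alone the split was 1 higher and 7 lower in place of 3 and 3. For VEGF Trap against hFc, the count of 0 in limma became 1 with normexp, with the authors' table or without the band of rows, and 4 in the 2-group fit, which takes its spread from these arrays alone. For VEGF-A against VEGF Trap, the 9 calls became 20 in the 2-group fit, 17 with slide as a block, and 5 to 9 with any 1 array left out. For Dll4-Fc against VEGF Trap, the 38 calls became 15 with the 1 Trap array of slide 4 only, and ranged from 31 to 41 with any 1 array left out. For Dll4-Fc against VEGF-A they ranged from 36 to 42. The cause of these changes was not tested. The reference channel gave 32 members lower, 39 after median scaling, and 23 to 30 with any 1 array left out. Sample channel values alone shifted all genes by -0.25, -0.30 and -0.27 in Dll4-Fc, VEGF-A and VEGF Trap against hFc. No paired analysis was possible because the replicate numbers follow accession order and pair no samples. Ifit1, Cxcl10, Ifi44 and Iigp1 were not well above background on 1 array or more, which limits how well their differences are measured.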
